A study of Mus musculus with 6 samples.

Results

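The genes described here encode 10 integrin subunits: Itgam, Itgb2, Itgb5, Itgav, Itga6, Itga9, Itgb1, Itga4, Itgal and Itgax. They were chosen by symbol, as 10 of the 32285 genes in the count matrices, and each had at least 1 UMI (unique molecular identifier, the tag that marks one captured transcript) in all 6 libraries. Their transcripts were followed across 4 myeloid cell types of the adult mouse brain, and across libraries within the commonest type, the microglia.

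Integrins are receptors built from one alpha and one beta subunit, which reach the cell surface together and bind matrix proteins or ligands on other cells. The beta chain encoded by Itgb2 is restricted to leukocytes and pairs with the alpha chains encoded by Itgal (LFA-1, which binds ICAMs), Itgam (CD11b, the alpha chain of complement receptor CR3) and Itgax (CD11c, of complement receptor CR4). Itgav pairs with Itgb5 and other beta chains and binds vitronectin and the latent form of TGF-beta, on which microglia depend. Itgb1 pairs with many alpha chains, among them Itga6 (a laminin receptor), Itga9 (which binds tenascin-C and osteopontin) and Itga4 (VLA-4, which holds circulating leukocytes on VCAM1).

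Brains came from 3 male C57BL/6J mice at postnatal day 89 and were homogenised whole and cold in a Dounce, after the meninges were taken off as far as possible. Mouse 2 was processed with a cocktail of actinomycin D, triptolide and anisomycin, which block transcription and translation (INHIB), and mice 1 and 3 were processed without it (NONE). Live cells positive for CD45 and CD11b were sorted, and the suspension of each mouse was loaded both on the V3.0 and on the V3.1 version of the 10X kit. CD11b is the protein made from Itgam, so cells without it at the surface were not collected and no Itgam value below speaks of them.

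The 6 libraries held 29412 barcodes and 83133615 UMIs, and 19725 barcodes passed limits on genes (1000 to 4000), UMIs (up to 12000) and mitochondrial UMIs (up to 15%). The V3.0 library of mouse 3 stood apart, since 21.5% of its barcodes passed against 70.0% to 76.8% in the other libraries. Any 2 libraries shared 1 to 14 barcodes. Gates on marker UMIs, none of them an integrin, gave 18932 microglia, 35 border macrophages, 137 monocytes and 244 neutrophils, with medians of 3508.5, 3877, 6383 and 5575.5 UMIs per cell. Cells are called by these names from the gate alone. Of the 10 genes that stood out most in each gate, 6 were own markers in microglia (Sparc first), 4 in border macrophages, 2 in monocytes (Plac8 first) and 4 in neutrophils (Retnlg first). In the border macrophage gate, major histocompatibility genes (H2-Eb1, H2-Aa, Cd74) stood beside Pf4 and Mrc1, and the perivascular marker Lyve1 had a UMI in 11.4% of cells. In the monocyte gate, Plac8 had a UMI in 94.9% of cells, Ms4a4c in 83.2%, Ccr2 in 58.4%, F10 in 38.0% and Vcan in 23.4%. Whether the monocyte gate mixes cell types was not tested.

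UMIs were summed per mouse and cell type, which gave 12 sums, and levels are given as normalised CPM (counts scaled to a common library total, after TMM), mouse 1 first, then mouse 2 and mouse 3. Levels are compared between cell types and never between genes, since capture of the 3′ end differs from gene to gene. A gene was called in edgeR's quasi-likelihood test, with mouse as a block, when its adjusted p was under 0.05 and its log2 fold change passed 0.58 in either direction. S100a8 and S100a9 alone took 37.4% to 38.8% of neutrophil UMIs but at most 0.106% of those of the other types. Dividing by total UMIs moved the median of all genes tested in neutrophils against microglia from -0.23 to -1.71 on the log2 scale. The part of S100a8 and S100a9 in that shift was not tested. Neutrophil values therefore depend on the scaling, and the value with total UMIs is given where it ended a call.

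Itgam, the CD11b gene, lies at chr7:128062640-128118491 on the plus strand (GRCm38), with Itgax next to it at chr7:128129547-128150657 on the same strand and Itgal on the same chromosome at chr7:127296260-127335138. The first pair are shown by their promoters (RefSeq, GRCm38.p6, 250 bases before to 50 after the start), because these neighbours had different patterns across the 4 cell types. Itgam is at chr7:128062390-128062689 and Itgax at chr7:128129300-128129599, both on the plus strand, and capitals mark GAGGAA (the core bound by PU.1), TGAGTCA (AP-1) or GGGCGG (Sp1) on either strand.
Itgam: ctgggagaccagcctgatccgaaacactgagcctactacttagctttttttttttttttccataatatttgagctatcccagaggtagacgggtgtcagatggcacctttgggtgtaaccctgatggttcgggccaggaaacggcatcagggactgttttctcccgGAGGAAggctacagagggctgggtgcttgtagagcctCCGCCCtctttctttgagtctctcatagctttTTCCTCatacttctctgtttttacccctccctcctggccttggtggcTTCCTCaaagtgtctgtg
Itgax: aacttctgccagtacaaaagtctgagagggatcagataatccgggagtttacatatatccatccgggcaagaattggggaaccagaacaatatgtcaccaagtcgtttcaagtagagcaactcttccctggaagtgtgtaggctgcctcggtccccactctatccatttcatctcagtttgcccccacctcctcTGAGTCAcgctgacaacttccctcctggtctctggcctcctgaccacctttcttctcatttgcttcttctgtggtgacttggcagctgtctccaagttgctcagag
The Itgam window held 3 matches to GAGGAA and 1 to GGGCGG, and the Itgax window held 1 to TGAGTCA and neither of the other motifs. None of these matches overlapped another. Of all 32851 promoters of that length, 28.3% held GAGGAA, 5.2% held TGAGTCA and 35.7% held GGGCGG, so these are descriptions of letters and not sites. Promoters were found for 7 of the 10 members.

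Itgam transcripts were highest in neutrophils on this scaling. The level was 1335, 1345 and 1412 normalised CPM in neutrophils, against 480, 445 and 483 in microglia, 266, 256 and 198 in monocytes and 140, 188 and 57.9 in border macrophages. No cell type overlapped with the next, though border macrophages rested on 9, 16 and 2 UMIs. Itgam was 2.90-fold higher in neutrophils than in microglia (log2 fold change 1.54, SE 0.16, adjusted p = 2.34e-20, higher in 3 of 3 mice). That call was lost when total UMIs replaced TMM (0.049, adjusted p = 0.739). Microglia exceeded monocytes by 0.95 on the log2 scale (adjusted p = 1.00e-06) and border macrophages by 1.70 (adjusted p = 3.11e-07), while monocytes and border macrophages were not separated (0.75, SE 0.33, adjusted p = 0.0994).

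Itgb2, the shared beta chain at chr10:77530252-77565708, was also highest in neutrophils but had another order below them. It stood at 835, 813 and 678 in neutrophils, 306, 407 and 323 in monocytes, 157, 157 and 150 in microglia, and 62.3, 118 and 57.9 in border macrophages (4, 10 and 2 UMIs). No cell type overlapped with the next. The log2 fold change was 2.32 (SE 0.16, adjusted p = 3.07e-45) for neutrophils against microglia and 1.16 (adjusted p = 9.63e-10) for neutrophils against monocytes, and the latter was lost with total UMIs (0.023, adjusted p = 0.912). Monocytes exceeded microglia by 1.17 (adjusted p = 5.01e-11), which turned to -0.05 (adjusted p = 0.746) when the TMM factors came from well counted genes alone. Border macrophages against microglia missed the threshold (-0.87, adjusted p = 0.113) and were called lower in 4 of 13 alternatives, namely total UMIs (-1.01), TMM from well counted genes (-1.66), the stricter gate (-2.83) and V3.1 libraries alone (-2.13).

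Itgal, the alpha chain of LFA-1, was high in monocytes and neutrophils and very low in microglia. Levels were 306, 454 and 417 in monocytes, 341, 193 and 314 in neutrophils, and 0.435, 1.15 and 0.343 in microglia, while border macrophages had 2 UMIs in all. Monocytes and neutrophils overlapped, and both lay far above microglia in every mouse. Log2 fold changes against microglia were 9.16 (SE 0.22) for monocytes and 8.68 (SE 0.24, adjusted p = 7.94e-276) for neutrophils. The difference between neutrophils and monocytes missed the fold threshold (-0.48, adjusted p = 0.0213), and its sign depended on the scaling, with -1.61 under total UMIs and 0.64 under TMM from well counted genes, each past both thresholds. Monocytes were 37.8-fold above border macrophages by their counts (95% interval 10.4 to 313) and neutrophils 25.8-fold (7.05 to 214).

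Itgax, the CD11c gene, was highest in monocytes. Monocytes had 17.7, 75.4 and 36.5 normalised CPM (4, 40 and 7 UMIs), microglia had 2.17, 3.10 and 1.98 (65, 110 and 52 UMIs), neutrophils had 2 UMIs in all and border macrophages none. Monocytes lay above microglia in 3 of 3 mice (log2 fold change 4.17, SE 0.46, adjusted p = 1.82e-18). Against a floor of 3 UMIs over the group, monocytes were at least 3.30-fold above border macrophages, and they were 19.3-fold above neutrophils (95% interval of the counts 5.07 to 163). Intervals and floors here cover counting error only. The border macrophage floor amounts to 16.3 normalised CPM, which lies above the level in microglia, so the order of these cell types was not detectable at this depth.

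Itgb5, a beta chain of vitronectin receptors, was highest in microglia. Its gene lies at chr16:33829665-33949338, plus strand, and its promoter (chr16:33829415-33829714, RefSeq, GRCm38.p6) is shown for contrast with that of Itgam, with the same motifs in capitals.
Itgb5: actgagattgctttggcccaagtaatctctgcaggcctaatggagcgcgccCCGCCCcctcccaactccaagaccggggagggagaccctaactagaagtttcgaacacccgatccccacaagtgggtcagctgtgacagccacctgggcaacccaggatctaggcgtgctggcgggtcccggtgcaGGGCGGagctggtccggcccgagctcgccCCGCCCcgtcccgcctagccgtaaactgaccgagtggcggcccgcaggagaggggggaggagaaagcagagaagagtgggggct
It held 3 matches to GGGCGG and none to GAGGAA or TGAGTCA. Its 20 CpG compared with 6 in the Itgam window, 5 in the Itgax window and a median of 7 over all promoters. The windows of Itgav and Itgb1 held 24 and 27 CpG.

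Itgb5 levels were 601, 624 and 656 normalised CPM in microglia, 171, 364 and 174 in border macrophages, 44.4, 45.2 and 62.5 in monocytes and 58.1, 38.5 and 27.6 in neutrophils. The first pair of cell types did not overlap with each other or with the rest, and monocytes overlapped with neutrophils. The log2 fold change against microglia was -1.29 in border macrophages (SE 0.25, adjusted p = 3.16e-06), -3.69 in monocytes (SE 0.23, adjusted p = 6.13e-57) and -3.86 in neutrophils (SE 0.24, adjusted p = 8.64e-55). Monocytes were also lower than border macrophages (-2.40, adjusted p = 4.97e-10), a call lost under a stricter gate that kept 12 border macrophages (-1.53, adjusted p = 0.101). Neutrophils and monocytes differed by -0.17 (95% interval -0.91 to 0.58), and here too the sign and the call depended on the scaling, with -1.30 (adjusted p = 0.000765) under total UMIs and 0.95 (adjusted p = 0.0202) under TMM from well counted genes.

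Itgav, the alpha chain that Itgb5 pairs with, followed a shallower gradient. Its level (gene at chr2:83724397-83806916) was 109, 104 and 106 in microglia, 26.6, 75.4 and 62.5 in monocytes, 31.1, 47.0 and 29.0 in border macrophages (2, 4 and 1 UMIs) and 43.5, 27.0 and 33.1 in neutrophils. All 3 microglial sums lay above all others, and the other cell types overlapped. Against microglia the log2 fold change of Itgav was -1.61 in neutrophils (SE 0.29, adjusted p = 7.86e-08), -1.49 in border macrophages (SE 0.50, adjusted p = 0.0261) and -0.84 in monocytes (SE 0.23, adjusted p = 0.000771). The border macrophage call was lost in DESeq2 (adjusted p = 0.129), without the V3.0 library of mouse 3 (adjusted p = 0.0699), with V3.0 libraries alone (adjusted p = 0.0632) and without any one mouse (adjusted p from 0.0513 to 0.220). The monocyte call was lost without mouse 1 (-0.55, adjusted p = 0.0707).

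Itgb1, the widest-pairing beta chain, at chr8:128685654-128733200, was low in neutrophils. Levels were 226, 377 and 266 in monocytes, 222, 235 and 225 in microglia, 187, 235 and 86.9 in border macrophages and 32.7, 61.6 and 38.6 in neutrophils. Neutrophils did not overlap with any other type, and the others overlapped with each other. The log2 fold change of neutrophils was -2.73 against monocytes (SE 0.27, adjusted p = 3.31e-23), -2.37 against microglia (SE 0.25, adjusted p = 8.52e-21) and -2.05 against border macrophages (SE 0.40, adjusted p = 2.04e-06). Monocytes against microglia gave 0.36 (95% interval 0.05 to 0.67, adjusted p = 0.0428), short of the fold threshold, and this turned to a called -0.85 (adjusted p = 7.52e-09) with TMM from well counted genes.

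Itga6, the laminin receptor chain, was seen in microglia and border macrophages and was almost missing from monocytes. Its level was 230, 221 and 250 in microglia, 77.9, 118 and 261 in border macrophages (5, 10 and 9 UMIs), 39.9, 38.5 and 22.1 in neutrophils, and 0, 3.77 and 5.21 in monocytes (3 UMIs in all). Border macrophages of mouse 3 reached the microglial range and those of the other mice did not. Microglia were 73.3-fold above monocytes (95% interval of the counts 25.1 to 356), and neutrophils were lower than microglia (-2.73, SE 0.26, adjusted p = 6.76e-25). Border macrophages against microglia gave -0.80 (SE 0.31, adjusted p = 0.0645), and it was called lower in 8 of 13 alternatives, among them total UMIs (-0.92), the fit without the V3.0 library of mouse 3 (-1.29, adjusted p = 0.00609), the stricter gate (-3.39) and V3.1 libraries alone (-3.20). Over all 13 it ran from -3.39 to -0.48. The called difference between neutrophils and border macrophages (-1.93, adjusted p = 0.000169) rested on the V3.0 cells, as it was -0.21 (adjusted p = 0.931) in V3.1 libraries alone and 0.38 (adjusted p = 0.843) under the stricter gate. The Itga6 gene (chr2:71745616-71858416, plus strand) is overlapped on its strand by Gm13663 and Gm13662, so a few of its reads may have been counted elsewhere or not at all.

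Itga9, at chr9:118606690-118901003, was sparse, with a UMI in 8.42% of microglia at the thinned depth described below. Microglia gave 34.9, 34.5 and 32.5 normalised CPM from 3126 UMIs, while border macrophages had 2 UMIs, neutrophils 3 and monocytes 0. Microglia were at least 10.8-fold above monocytes and 8.14-fold above neutrophils (95% interval of the counts 2.78 to 39.5). Against border macrophages the ratio of 3.13 had an interval of 0.867 to 25.9, so no difference was detectable at this depth.

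Itga4, the VLA-4 alpha chain, was highest in monocytes and very low in microglia. It stood at 390, 465 and 438 in monocytes, 93.4, 106 and 86.9 in border macrophages (18 UMIs in all), 58.1, 77.1 and 60.7 in neutrophils, and 0.735, 2.56 and 0.914 in microglia (22, 91 and 24 UMIs). No cell type overlapped with the next. Log2 fold changes against microglia were 8.23 (SE 0.20) for monocytes, 6.04 (SE 0.60, adjusted p = 9.02e-22) for border macrophages and 5.52 (SE 0.37, adjusted p = 2.41e-48) for neutrophils. Monocytes also exceeded border macrophages by 2.19 (adjusted p = 1.07e-09). Neutrophils against border macrophages missed the threshold (-0.52, 95% interval -1.40 to 0.37, adjusted p = 0.390) and were called lower with total UMIs (-1.85, adjusted p = 0.000688). The gene (chr2:79255426-79333123, plus strand) overlaps Cerkl on the other strand.

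**Figure D1:**
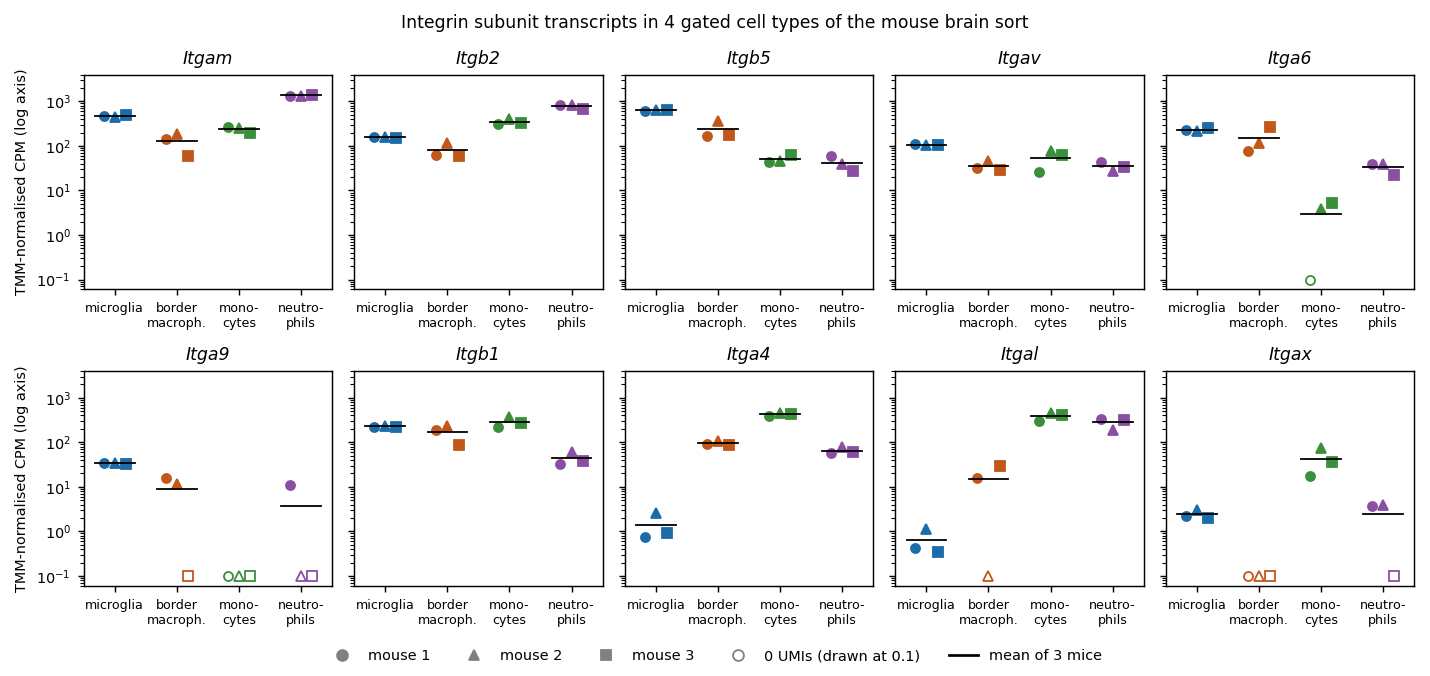
Normalised CPM on a log axis for each integrin subunit in the 4 gated cell types, 1 point per mouse, with a line at the mean of 3 mice and open symbols, drawn at 0.1, for sums with 0 UMIs. Itgam and Itgb2 are highest in neutrophils, Itgb5, Itgav and Itga9 in microglia, and Itga4 and Itgax in monocytes, and Itga4, Itgal and Itgax lie below 4 CPM in microglia on this scaling.

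Counted over the 10 members, border macrophages against microglia gave 1 member called higher and 3 lower, where 6.6% of all 7633 genes tested were called higher and 6.46% lower (13.1% in all). Monocytes against microglia gave 4 higher and 5 lower, beside 26.7% and 26.0% of all genes (52.7%). Neutrophils against microglia gave 4 higher and 5 lower, beside 29.8% and 33.7% (63.5%). Monocytes against border macrophages gave 4 higher and 2 lower, beside 12.4% and 7.55% (20%). Neutrophils against border macrophages gave 3 higher and 3 lower, beside 22.6% and 14.7% (37.3%), and neutrophils against monocytes gave 3 higher and 3 lower, beside 24.4% and 20.9% (45.4%). The split followed the scaling: with total UMIs, neutrophils against microglia gave 3 members higher and 5 lower, beside 12.1% and 72.1% of all genes, and neutrophils against monocytes gave 2 and 6, beside 9.18% and 53.0%. With TMM from well counted genes, monocytes against microglia gave 3 members higher and 6 lower, beside 10.5% and 69.7%, and neutrophils against monocytes gave 6 and 3, beside 51.9% and 7.80%. With shares of that size among all genes, a call for a member is common, and the size and sign of each change carry the description. Comparisons that share a cell type share its sums and are not independent.

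The share of cells with at least 1 UMI was read after each cell was thinned to 2000 UMIs, which left out 755 microglia and 3 monocytes. Itgb5 was seen in 79.9% of microglia (exact 95% interval 79.3 to 80.5), 40% of border macrophages (23.9 to 57.9), 7.46% of monocytes (3.64 to 13.3) and 1.64% of neutrophils (0.448 to 4.14). Itgam was seen in 70.5% of neutrophils (64.3 to 76.1) and 68.3% of microglia (67.6 to 68.9), and in 41.8% of monocytes and 22.9% of border macrophages. Every one of these cells had been sorted for the CD11b protein.

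Itga4 was seen in 61.9% of monocytes (53.2 to 70.2), 20% of border macrophages, 6.15% of neutrophils and 0.319% of microglia. Itgal was seen in 46.3% of monocytes and 27.5% of neutrophils, Itgax in 12.7% of monocytes, and Itgb2 in 58.2% of monocytes and 57.0% of neutrophils. Itga6 and Itga9 were seen in 0 of 134 thinned monocytes, and the floor of 3 counts allows a share of up to 2.24% with a UMI at this depth. With all UMIs, Itga6 was seen in 3 of 137 monocytes (2.19%, exact interval 0.454 to 6.27). For all 10 members the cell type with the largest share was the same with all UMIs and after thinning to 1000 UMIs. For Itgb2 that type was monocytes (90.5% against 86.1% of neutrophils with all UMIs), although its level was highest in neutrophils.

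**Figure D2:**
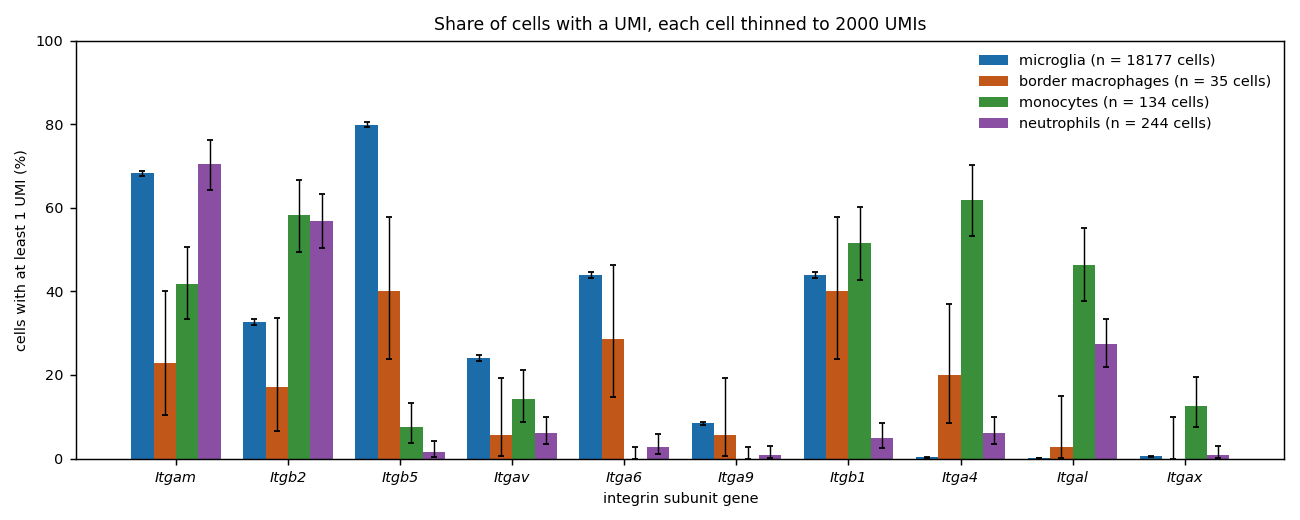
Percent of cells with at least 1 UMI of each integrin subunit after thinning to 2000 UMIs per cell, by gated cell type, with exact 95% binomial intervals that cover counting error only. Itgb5 separates microglia (79.9%) from neutrophils (1.64%), and Itga4 separates monocytes (61.9%) from microglia (0.319%).

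Low values were set against RNA from other cells that droplets pick up. The neuronal gene Snap25 was seen in 0.105% of thinned microglia, the neutrophil gene S100a8 in 51.2% of them, and the microglial gene P2ry12 in 10.7% of neutrophils. Over the 8 microglial gate markers, neutrophils held 2.43% to 6.23% of the microglial level. Itgb5 (2.52%), Itga9 (4.47%) and Itga6 (5.47%) fell inside that range in neutrophils and are read as background there, while Itgb1 (7.13%) and Itgav (12%) lay above it. In monocytes the same markers held 0% to 1.04%, with Itgb5 above them at 6.12%.

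In microglia, the 5 monocyte gate markers held 0.103% to 0.737% of their monocyte level. Itga4 (0.428%) and Itgal (0.212%), pooled over the mice, fell inside that range, so their folds against microglia are not measures of microglial expression. Itgax, at 5.83% of its monocyte level, lay above it. In mouse 2, 91 Itga4 UMIs lay in 61 microglia, against 22 in 20 and 24 in 20 in mice 1 and 3. For Itgal there were 41 in 22, against 13 in 11 and 9 in 9. Whether these transcripts are background in microglia was not tested. Gates cap how many markers of another type a cell may hold, which can narrow these ranges. In border macrophages the microglial markers held 2.49% to 59.8%, with a median of 8.45% and Fcrls highest. Itgam, Itgb2, Itgb5, Itgav, Itga6 and Itga9 held 29.0% to 51.9% there, above that median but inside the range. By that range their border macrophage levels are not told apart from background. Of the microglial markers, only Fcrls, with a UMI in 88.6% of border macrophages, lay above these members. Whether Fcrls is background there was not tested. Itgb1, at 77.1%, lay above the range.

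The kit comparison asked whether the V3.1 chemistry changes what microglia show. In microglia of the V3.0 libraries, again mouse by mouse, Itgam was 632, 592 and 568 normalised CPM, and in V3.1 it was 643, 618 and 662. These levels are scaled over microglia alone and differ from those above. Itgb5 was 823, 850 and 853 against 764, 844 and 884. For both genes the kits overlapped, with log2 fold changes of 0.10 (95% interval -0.03 to 0.23) and -0.02 (-0.16 to 0.12).

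Itgb1 and Itgav did not overlap between kits. Itgb1 was 270, 302 and 274 with V3.0 and 327, 340 and 306 with V3.1 (log2 fold change 0.20, SE 0.07, adjusted p = 0.0808). Itgav was 149, 151 and 159 with V3.0 and 138, 129 and 139 with V3.1 (-0.18, SE 0.07, adjusted p = 0.0928). With mouse as a replicate block, which pairs the libraries of each animal, these adjusted p values were 0.00584 and 0.0139, and both changes stayed under the fold threshold. edgeR called 0 of 9 members tested beside 3.05% of 12018 genes, and DESeq2 called 0. An unadjusted edgeR p below 0.05 was found for 2 members, beside 3534 of the 12018 genes. Itgal, with 1 to 23 UMIs per library, was not tested. The number of all genes called was 366, and 581 with the block.

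The coefficient of variation over the 6 libraries of both kits was 4.83% for Itgb5, 5.59% for Itgam, 7.03% for Itga6, 7.31% for Itgb2, 7.65% for Itgav, 8.33% for Itga9 and 9.24% for Itgb1. It was 22.7% for Itgax, 70.7% for Itgal and 72.9% for Itga4. Within a single kit the 7 abundant members ran from 1.99% (Itgb5 with V3.0) to 12.8% (Itga9 with V3.0).

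**Figure D3:**
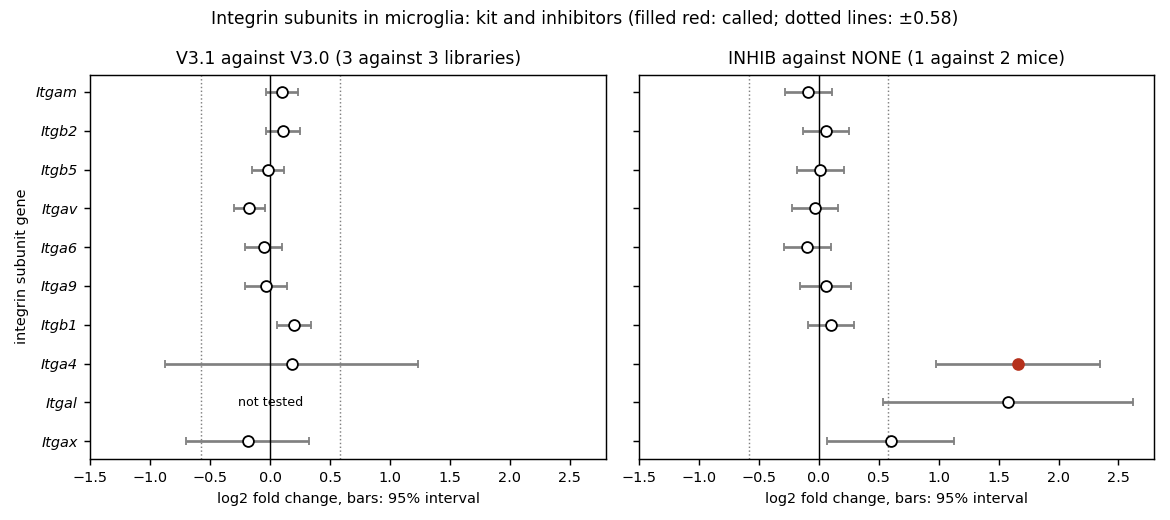
Log2 fold change of each integrin subunit in microglia with 95% intervals, for V3.1 against V3.0 (left) and INHIB against NONE (right), where dotted lines mark the fold threshold and a filled point is called. Itga4 at 1.66 is the filled point, and the 7 abundant members lie within 0.20 of 0 on both sides.

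The inhibitor comparison asked which transcripts differ when new transcription is blocked during preparation. It rested on 1 INHIB mouse against 2 NONE mice, so the inhibitors and the animal cannot be told apart, and mouse 2 was assumed to vary like the others. Itgb5 was 845 in mouse 2 against 794 and 879, Itgb2 was 213 against 208 and 201, and Itgam was 602 against 634 and 647. Over Itgam, Itgb2, Itgb5, Itgav, Itga6, Itga9 and Itgb1 the log2 fold changes ran from -0.10 to 0.10, with no adjusted p below 0.93. Their 95% intervals all lay between -0.29 and 0.30.

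Itga4 was the 1 member called of 10 tested, beside 0.88% of 13180 genes. Its level in microglia was 3.47 normalised CPM in mouse 2 (91 UMIs) against 0.972 and 1.22 in mice 1 and 3 (22 and 24 UMIs), a log2 fold change of 1.66 (SE 0.35, adjusted p = 0.000351). Both libraries of mouse 2, at 2.90 and 4.17, lay above the other 4, which ran from 0.836 to 1.28. Over 9 alternatives the change ran from 1.43 to 1.91 and the call held in 6. It was lost in DESeq2 (adjusted p = 1.00), under the stricter gate (1.43, adjusted p = 0.0576) and in V3.0 libraries alone (1.46, adjusted p = 0.114), and without the V3.0 library of mouse 3 it was 1.64 (adjusted p = 0.0411).

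Itgal, the other transcript of circulating cells, stood at 1.56 in mouse 2 against 0.575 and 0.459 (log2 fold change 1.58, SE 0.53, adjusted p = 0.141), and Itgax at 4.20 against 2.87 and 2.65 (0.60, SE 0.27, adjusted p = 0.504). Neither was called. With 1 INHIB mouse, unadjusted p values are not counted here, and DESeq2 called no member. In the same mouse order, the gates held 30, 82 and 25 monocytes, so mouse 2 gave the most, and the Itga4 level in microglia lay in the range of monocyte markers given above. The summed level of the 8 monocyte markers within microglia was 18.1, 19.4 and 28.3. Of this, Chil3, which was more abundant in neutrophils (1884 CPM) than in monocytes (920), gave 2.52, 2.44 and 9.23, and it was the 1 marker called, lower in INHIB. The 5 markers used in the monocyte gate summed to 11.004, 12.512 and 13.366, and Plac8, the first monocyte gene, was 2.917, 4.997 and 3.469. None of the 8 was at 0.

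Of the microglia with an Itga4 UMI (20, 61 and 20 cells), 5%, 23.0% and 25% also had a monocyte marker UMI, against 5.86%, 5.93% and 8.27% of those without. For Itgal the cells numbered 11, 22 and 9, and the shares were 9.09%, 36.4% and 33.3%. The 8 border macrophage markers summed to 5.08, 6.68 and 7.24, and Cd79b, the 1 of 8 lymphocyte markers that the gate did not use, was at 41.5, 45.1 and 37.9. The other 7 lymphocyte markers had kept cells out of the gate and say nothing here. The part of monocyte RNA or cells in the Itga4 difference was not tested.

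**Figure D4:**
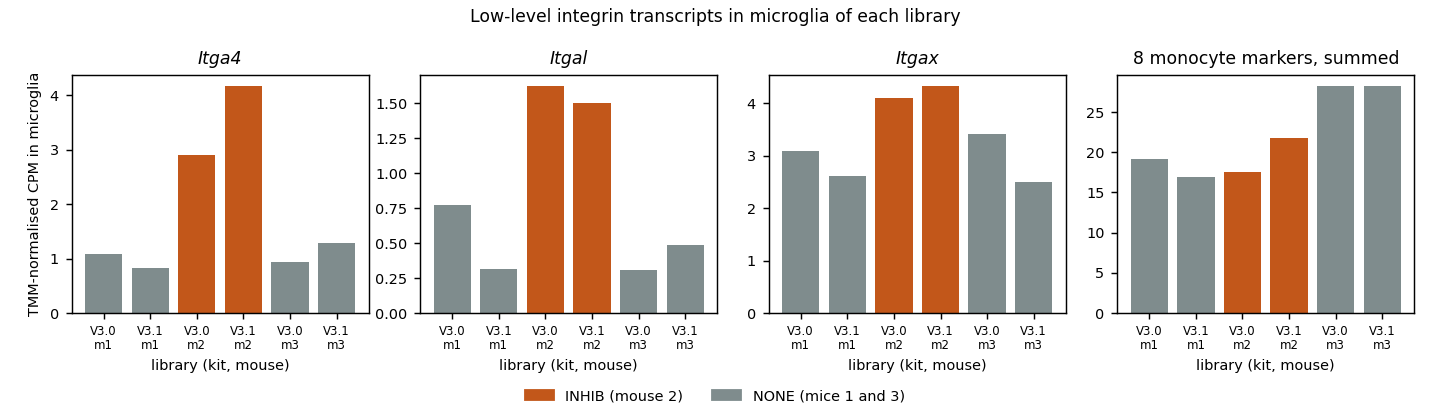
Normalised CPM in microglia of each of the 6 libraries for Itga4, Itgal, Itgax and the sum of 8 monocyte markers, bars from 0, coloured by inhibitor treatment. Itga4 is 2.90 and 4.17 in the libraries of mouse 2 and at most 1.28 elsewhere, while the monocyte marker sum, which includes Chil3, is highest in mouse 3.

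Itgax is known as a gene that microglia raise in ageing, in development and around plaques. After thinning to 2000 UMIs, 30, 50 and 27 microglia of the 3 mice held an Itgax UMI, 107 of 18177 cells or 0.589% (exact interval 0.483 to 0.711), above the Snap25 share. Sums of these cells were set against all other microglia of the same mouse. None of the 7 members tested was called by edgeR or DESeq2, beside 0.145% of 11008 genes called by edgeR. An unadjusted edgeR p below 0.05 was found for 2 members, beside 620 of the 11008 genes. The 2 members were Itga9 (-1.81, adjusted p = 0.622) and Itgb1 (-0.46, adjusted p = 0.749). Itgb2, the partner chain of Itgax, differed by 0.13 (95% interval -0.31 to 0.56). Itga4 and Itgal were too rare for the test.

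Outside the family 16 genes were called. Of a list of 16 genes known from disease-associated microglia, 12 could be tested and 3 rose. Lpl, a lipoprotein lipase, was 128, 258 and 52.2 CPM with an Itgax UMI against 10.5, 10.1 and 13.6 without (log2 fold change 3.89, SE 0.42, adjusted p = 1.49e-16). Apoe, a lipid carrier, was 893, 2689 and 643 against 283, 343 and 416 (2.05, SE 0.12, adjusted p = 1.04e-57). The lysosomal tetraspanin gene Cd63 rose by 0.95. The list's median was 1.13, against -0.19 over all genes tested.

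Among the other genes called higher were Cybb, a subunit of the phagocyte oxidase, and Cd74, the invariant chain of antigen presentation (207, 159 and 174 against 32.3, 39.6 and 28.0). Apoe and Cd74 were also abundant in the border macrophage gate. Of the 8 border macrophage markers, Mrc1 alone had UMIs in the cells with an Itgax UMI (2 UMIs, in mouse 2), and the list summed to 0, 2 and 0 UMIs there, where the level of the other microglia would give 0.285, 0.585 and 0.381. The 8 monocyte markers summed to 3, 0 and 0 UMIs, where that level would give 1.11, 2.00 and 1.56. Sums this small show no direction. The gate itself limits these markers, and the part of other cells in the result was not tested. Among those called lower were Maf, a macrophage transcription factor (734, 873 and 991 against 1338, 1207 and 1391), Sort1 and Klf3. Of 10 homeostatic microglial genes 0 were called, with a median of -0.28. The count of 16 fell to 5, 0 and 9 without mouse 1, 2 and 3, and DESeq2 gave 8.

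Of the other 16 subunits of the family, microglia had 10 above 3 UMIs, monocytes 4, neutrophils 2 and border macrophages 0. That cutoff equals 0.0327 normalised CPM in microglia, 3.16 in monocytes, 4.19 in neutrophils and 16.3 in border macrophages. These counts therefore depend on depth and do not rank the cell types. Of the 16 subunits, 3 were abundant enough to test between cell types. Itgb3, another beta chain that pairs with Itgav, was at 21.4 ± 2.39 CPM (SD, n = 3) in microglia and 23.4 ± 8.70 in neutrophils, and it was lower in monocytes (2.51, log2 fold change -2.32 against microglia, adjusted p = 0.00063). Itgb7, which pairs with Itga4, was at 162 ± 39.0 in monocytes and 0.257 ± 0.164 in microglia (9.10, adjusted p = 5.82e-108). Itga1, a collagen receptor chain, had 28 UMIs in monocytes and 1 in microglia.

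Genes that act on integrin tails or upstream of them differed between the same cell types. Of 20 activators and tail adaptors, 16 were tested, and neutrophils against microglia gave 12 higher and 1 lower (median 1.29, against -0.23 over all genes), beside 29.8% and 33.7% of all genes. With total UMIs they gave 5 higher and 5 lower (median -0.20, against -1.71 over all genes), beside 12.1% and 72.1%. Rasgrp2, which activates Rap1 upstream of talin, was at 233 ± 14.3 normalised CPM in neutrophils, 184 ± 21.5 in monocytes and 0.449 ± 0.222 in microglia (n = 3 each). Flna, filamin A, which binds beta tails, was at 939 ± 101, 415 ± 75.1 and 18.7 ± 1.54. Monocytes against microglia gave 9 higher and 3 lower (median 0.85), beside 26.7% and 26.0%, and 3 higher and 7 lower (median -0.38, against -1.30 over all genes) with TMM from well counted genes, beside 10.5% and 69.7%. Among those called was Tln2, a talin, at 0 UMIs in monocytes and at least 13-fold below microglia. Parvg, gamma-parvin, was lower in monocytes (-2.07, adjusted p = 6.80e-07).

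Of 12 signalling kinases and adaptors 10 were tested, and 7 were higher and 0 lower in neutrophils than in microglia (median 0.86), while 6 were higher and 1 lower in monocytes, beside the same shares of all genes. With total UMIs the neutrophil counts were 1 higher and 5 lower (median -0.63, against -1.71 over all genes), beside 12.1% and 72.1% of all genes. With TMM from well counted genes the monocyte counts were 1 higher and 4 lower (median -0.45, against -1.30), beside 10.5% and 69.7%. The direction of these counts depended on the scaling, while the list median stayed above that of all genes. Fgr, a Src-family kinase that acts behind beta chains of leukocytes, was at 300 ± 68.5 in neutrophils, 201 ± 25.4 in monocytes and 2.02 ± 0.0788 in microglia. Syk, its downstream partner, rose in neutrophils by 1.95 (SE 0.17). Vav1 was lower in monocytes (-1.11, SE 0.24).

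Of 15 ligands and partners 9 were tested. Monocytes against microglia gave 5 higher and 3 lower, beside 26.7% and 26.0% of all genes. Neutrophils against microglia gave 3 higher and 4 lower, near the 29.8% and 33.7% of all genes. Fn1, fibronectin, which Itga4 and Itgav bind, was at 966 ± 342 in monocytes and 0.685 ± 0.232 in microglia. C3, whose fragment iC3b is bound by CD11b and CD11c, was at 349 ± 133 in neutrophils, 196 ± 36.2 in monocytes and 0.407 ± 0.189 in microglia. F11r, a junction protein bound by LFA-1, was at 191 ± 13.7 in microglia and 19.7 ± 3.76 in neutrophils, and Icam1 was at 79.2 ± 3.48 and 7.48 ± 6.49. Vcam1, the ligand of VLA-4, was at 166 ± 11.5 in border macrophages and 4.46 ± 1.61 in microglia (5.19, SE 0.52, adjusted p = 2.37e-21). In microglia scaled alone, Vcam1 was at 8.47 in the 1 INHIB mouse against 4.76 ± 0.850 in the 2 NONE mice (log2 fold change 0.84). The inhibitors and the animal cannot be told apart there. Between the kits, no gene tested from these lists was called in edgeR.

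Over the 12 sums, which share mice and cell types, members of known pairs moved to different degrees. Pearson's r of log2(normalised CPM + 1) was 0.81 for Itgam and Itgb2, 0.68 for Itgal and Itgb2, 0.44 for Itgax and Itgb2, 0.65 for Itgav and Itgb5, and -0.02 for Itga4 and Itgb1. The most opposed pair was Itgb5 and Itgal (-0.96), and the most alike was Itgb5 and Itga9 (0.84). Itga9 had 2 UMIs in border macrophages, 0 in monocytes and 3 in neutrophils. Its r values, with members and with other genes, therefore mainly set microglia against cell types not above the floor of 3 UMIs.

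Genes outside the family with the most similar pattern were, for Itgb5, Serinc3 (0.98), Nrip1 (0.98) and Dock4 (0.97), and for Itga9, Ryk (1.00), Plxna4 (1.00) and Cnrip1 (0.99). Itgam was nearest to Rb1cc1 (0.98), Rnf167 (0.97) and Ncf1 (0.96), a subunit of the neutrophil oxidase. Itgb2 was nearest to Ppp1cb (0.98), Itga4 to Anxa5 (0.98), Itgal to Cast (0.98), Itgax to Bcl11a (0.97), Itga6 to Mgat4a (0.98), Itgb1 to Magt1 (0.97) and Itgav to Ick (0.94).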

How the data were processed

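Counts of UMIs per gene and barcode were deposited by the authors as one matrix per library, made with Cell Ranger 5.0.0 on the mm10 reference (GRCm38) after bcl2fastq, as the study's methods and the submitters' processing notes say. No doublet caller was run. Of the cells that passed, 377 were left in no gate, 116 of them with a lymphocyte marker UMI and 70 others with gate markers of 2 or more types. A gate needed 4 of 8 microglial, 3 of 8 border macrophage, 2 of 5 monocyte or 3 of 5 neutrophil markers, and 90% (microglia) or 60% (others) of the marker UMIs. These cutoffs were set on marker UMIs once the data were at hand.

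UMIs were summed per mouse and cell type, or per library, and tested in edgeR 4.0.16 (R 4.3.3). The fits used TMM, filterByExpr and Benjamini-Hochberg adjustment over all genes tested. Mouse was a block in the cell type and Itgax fits, because each mouse gave every sum there. The kit and inhibitor fits had no block. In microglia, deviations from the kit mean correlated between the V3.0 and V3.1 libraries of each mouse. Over the 500 most variable genes these correlations were 0.386, 0.508 and 0.236. DESeq2 1.42.0 was an alternative. The fit was tested on simulated data. The members and gene lists were chosen with earlier results of these data known. Named genes outside the members were at most 2 rising and 2 falling genes per list and comparison, called with the biggest change and changed the same way in all mice, and up to 3 genes per member by correlation. Cd74, Cybb, Maf, Sort1, Klf3 and the free RNA comparison were chosen after their values were seen. Clec7a of the disease-associated list had no row in the feature table. One gene that the naming rule picked is not reported here. The 95% intervals of shares and of count ratios are exact (Clopper-Pearson). Those of log2 fold changes come from the SE under a normal approximation. Floors are 3 UMIs.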

Additional observations from a re-analysis of the deposited data

How the results depend on the processing

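Of the values recomputed for members, 938 kept their sign and their side of the thresholds, 17 lost a call, 29 gained one and 32 changed sign, 27 of them with no call on either side. Of the called ones, TMM from well counted genes, added after the data were seen, gave -0.054 for Itgb2 and -0.85 for Itgb1 in monocytes against microglia, and 0.95 for Itgb5 and 0.64 for Itgal in neutrophils against monocytes, and the stricter gate gave 0.38 for Itga6 in neutrophils against border macrophages. That scaling rested on 278 genes and moved the median of all genes in monocytes against microglia to -1.30.

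The uncalled changes of sign were, with TMM from well counted genes, 0.56 (Itgav) and 0.20 (Itga4) in neutrophils against border macrophages, 0.34 (Itgav) in neutrophils against monocytes and 0.0056 for Itgam in the Itgax comparison. The stricter gate gave -0.056 for Itgb1 in monocytes against microglia, 0.31 for Itgal in neutrophils against monocytes and 1.32 for Itgav in neutrophils against border macrophages, where V3.1 only gave 1.38. V3.0 only gave 0.51 for Itgb5 in neutrophils against monocytes. In the Itgax comparison Itgam was 0.042 in DESeq2 and 0.093 with all UMIs, and thinning to 1000 UMIs gave -0.77 for Itgb2 and -0.31 for Itgb5. Itgax in neutrophils against microglia was -1.32 with total UMIs and -0.096 without a filter. Sums of 0 to 3 UMIs gave fitted values that depend on the prior count and are no folds: -5.25 (Itgal, border macrophages against microglia), 0.016 (Itga9, monocytes against border macrophages) and 7.996 (Itga9, neutrophils against border macrophages) under the stricter gate, and 0.54 and -0.46 for Itgax in border macrophages against microglia and neutrophils against border macrophages in DESeq2. Leaving out one mouse gave -0.50 to 0.36 for Itgav in neutrophils against border macrophages, -0.54 to 0.014 for Itgb5 in neutrophils against monocytes, -0.059 to 0.021, -0.13 to 0.027 and -0.10 to 0.041 for Itgb5, Itga6 and Itga9 between kits, -0.0075 to 0.11 for Itgb5 in the Itgax comparison and -0.21 for Itgax in neutrophils against microglia (without mouse 1). The cause of these changes was not tested.

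Counts over all genes depended more on the setting. Border macrophages against microglia (997 genes, 4 members) gave 2922 genes and 8 members with TMM from well counted genes and 588 genes under the stricter gate, and 597 to 867 without one mouse. Monocytes against microglia (4023) gave 6116 with TMM from well counted genes and 2534 with V3.0 only, and neutrophils against microglia (4848) gave 2845 with V3.0 only. Monocytes against border macrophages (1526 genes, 6 members) gave 935 genes and 3 members under the stricter gate, 969 with V3.0 only, 891 with V3.1 only and 868 to 1228 without one mouse. Neutrophils against border macrophages (2848) gave 1840 under the stricter gate, 1659 with V3.0 only and 1871 with V3.1 only, and neutrophils against monocytes (3464) gave 1889 with V3.0 only. The cause of these shifts, beyond fewer cells in the kit and gate settings, was not tested.

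The kit comparison (366) gave 161 to 414 genes without one mouse and 581 with the replicate block, which pairs libraries by animal. Taking the replicate block out of the cell type fits moved no count of genes by over 1.5 times. INHIB against NONE (116 genes, 1 member) gave 16 genes and 0 members in DESeq2, 66 with total UMIs, 64 with TMM from well counted genes, 68 genes and 0 members under the stricter gate, 45 without the V3.0 library of mouse 3, 0 members with V3.0 only and 68 genes with V3.1 only. Without either NONE mouse Itga4 gave 1.45 or 1.76, with no test. The Itgax comparison (16 genes, 0 members) gave 8 in DESeq2, 9 without a filter, 10 with TMM from well counted genes, 0 to 9 without one mouse (0 without mouse 2), 79 genes and 2 members with all UMIs and 31 genes after thinning to 1000 UMIs.

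Depth limited the border macrophages most. Their 148785 UMIs put 3 UMIs at 16.3 normalised CPM, against 0.0327 in microglia, so Itga9 and Itgax could not be ordered between these cell types. The inhibitor contrast had 1 treated mouse.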

Other observations

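Cells that held a UMI of a lymphocyte marker and fell in no gate numbered 116, with a median of 4249.5 UMIs. They had been sorted as CD11b positive like the rest. Itgal was seen in 37.1% of them (exact 95% interval 28.3 to 46.5), Itga4 in 31.0% (22.8 to 40.3) and Itgax in 12.9% (7.42 to 20.4), against 0.222%, 0.533% and 1.08% of microglia before thinning. Itgb7, the other partner of Itga4, was seen in 15.5% (9.46 to 23.4), between its shares in microglia (0.132%) and monocytes (43.8%). Itga2, a collagen receptor chain, was seen in 10.3% (5.46 to 17.4) and in 0.0951% of microglia and no gated monocyte or neutrophil. Itgb5 was seen in 37.1% and Itgam in 67.2%, so the set also holds cells with microglial transcripts, and its makeup was not tested.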
